A study of Homo sapiens with 4 samples.

Results

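The 10 genes described here belong to the ATF4 programme, the transcriptional arm of the integrated stress response, and to the serine synthesis and mitochondrial one-carbon pathway that ATF4 feeds. They are ATF4, DDIT3, TRIB3, CHAC1, ASNS, PHGDH, PSAT1, PSPH, SHMT2 and MTHFD2. They were picked by name, with earlier results of these data known. The Ensembl identifiers of a table of gene counts were matched through GENCODE release 29 to these symbols, which gave 10 of 58735 rows. All 10 passed the filter on low counts that left 17030 genes for testing. RNA-seq had been done on A549, an established human lung adenocarcinoma cell line grown in DMEM with fetal bovine serum. In the UHRF1 KO group the cells carried a guide RNA against UHRF1, the protein that binds hemimethylated DNA and brings the maintenance methyltransferase to newly copied strands. In the control group they carried a non-targeting guide. Both groups received the guide in the lentiCRISPRv2-hygro lentiviral vector and were selected with hygromycin, and each group had 2 libraries. Neither the time from infection to harvest nor the use of pooled or clonal cells was stated in the sources used here.

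When kinases that sense amino acid shortage, endoplasmic reticulum stress, viral RNA or lack of heme phosphorylate the initiation factor eIF2, most translation slows while the ATF4 mRNA is translated more. ATF4 then binds DNA with C/EBP or other bZIP partners and raises genes for amino acid uptake, amino acid synthesis and tRNA charging, along with DDIT3, TRIB3 and CHAC1. PHGDH, PSAT1 and PSPH turn a glycolytic intermediate into serine, and SHMT2 and MTHFD2 pass the serine carbon to mitochondrial folate. The ATF4 protein is controlled mainly in translation, and only mRNA was measured here.

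The libraries held 20020366 and 23977168 counts in UHRF1 KO, against 18604598 and 19222886 counts in control, so 1 count was worth between 0.0402 and 0.0561 CPM (counts scaled to a common library size) after TMM scaling. The targeted transcript, UHRF1, stood at 39.1 and 40.2 CPM in UHRF1 KO libraries, against 97.6 and 98.9 CPM in control libraries, a log2 fold change of -1.31 ± 0.055 (SE). Its mRNA was lower but still present; a guide that cuts DNA need not remove the mRNA, and the protein was not measured. The epithelial markers KRT8, KRT18, KRT19, CDH1 and EPCAM were all found, with a summed level of 2881 to 2912 CPM in UHRF1 KO and 3633 to 3823 CPM in control. Of these, 4 were lower in UHRF1 KO and EPCAM was higher, with 10.8 and 9.21 CPM in UHRF1 KO and 1.63 and 2.80 CPM in control. Of 16 markers of blood, endothelial, stromal, liver and muscle cells, 7 could be tested, of which 6 were higher in UHRF1 KO. Their summed level was 59.4 to 62.2 CPM in UHRF1 KO and 8.86 to 9.86 CPM in control, and the endothelial marker PECAM1 alone had 29.3 and 30.5 CPM in UHRF1 KO, against 0.393 and 0.108 CPM in control. The T cell marker CD3E was at 0 in all 4 libraries, and the leukocyte marker PTPRC was at 0 in both control libraries. Counts of mitochondrially encoded genes made up 7.26% to 7.29% of UHRF1 KO libraries and 8.02% to 8.33% of control libraries. The part of these shifts in the results that follow was not tested. No label says that a group's libraries are separate cultures: the p-values rest on the spread between libraries, and that spread may be technical. In bulk RNA, fewer cells with a transcript and less transcript per cell cannot be told apart.

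Of the 10 genes, 8 were lower in UHRF1 KO and 0 were higher, by edgeR's quasi-likelihood test at a Benjamini-Hochberg adjusted p under 0.05 over all genes tested. Among all 17030 genes tested, 30.1% were lower, 32% were higher and 62% were called in either direction by the same rule. The genes lower in UHRF1 KO were ATF4, TRIB3, ASNS, PHGDH, PSAT1, PSPH, SHMT2 and MTHFD2, and the ones with no call were DDIT3 and CHAC1. The same test without adjustment, at p under 0.05, gave 8 lower and 0 higher, a rule for which no share over all genes was counted. DESeq2 gave 7 lower and 0 higher, beside 3822 lower and 3838 higher of all 21484 genes it tested. With limma-voom 8 were lower and 0 higher, beside 5068 lower and 5390 higher of all 17030 genes. The median log2 fold change of the 10 genes was -0.41, beside 0.02 over all genes tested. The largest falls were those of PHGDH, the first enzyme of serine synthesis, ASNS and PSAT1, and the smallest called were those of ATF4 itself and SHMT2. That of ASNS rests on 15 and 30 counts in UHRF1 KO and 34 and 34 in control, and its call was lost in 5 of 16 alternatives.

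Both UHRF1 KO libraries lay below both control libraries for 9 of the 10 genes, the exception being DDIT3. This order of libraries was found for 38.4% of all genes tested, and libraries were apart in one direction or the other for 80%.

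**Figure D1:**
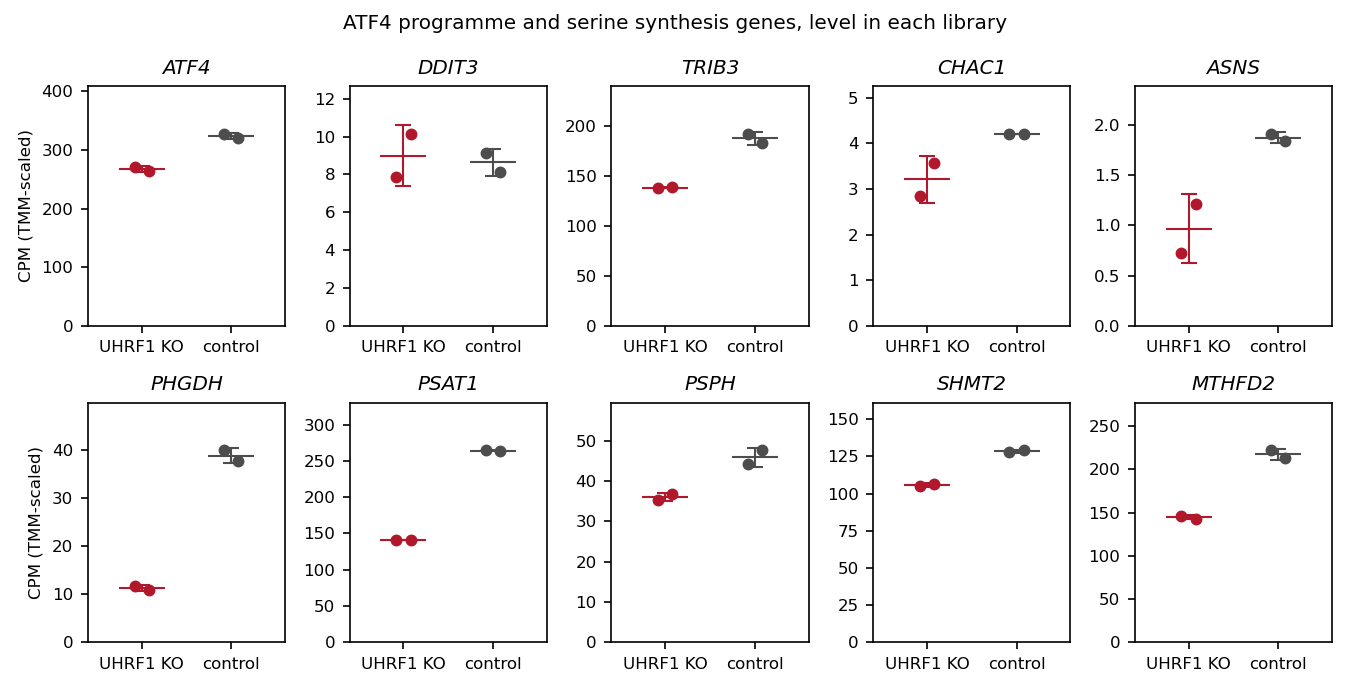
Level of each of the 10 genes in each library, in CPM after TMM scaling, on axes that start at 0. Points are the 2 libraries of UHRF1 KO (left, red) and of control (right, grey), with the mean (bar) and SD; the groups overlap for DDIT3 alone, and PHGDH lies at 11.7 and 10.9 CPM in UHRF1 KO, against 39.99 and 37.9 CPM in control.

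ATF4, the transcription factor at the head of the programme (ENSG00000128272, chr22:39519695-39522685, plus strand, GRCh38), had 270.9 and 264.5 CPM in UHRF1 KO libraries, against 327.4 and 320.2 CPM in control libraries. The groups did not overlap, and the gap between them was several times the spread within either. The means were 267.7 ± 4.53 CPM in UHRF1 KO and 323.8 ± 5.07 CPM in control (SD, n = 2 each), which is 1.21-fold lower in UHRF1 KO. The log2 fold change was -0.27 ± 0.036 (SE, with an adjusted p of 7.22e-08 by edgeR). That value sits close to the lower quartile of all genes tested, -0.30, since 26.8% of them had a lower log2 fold change.

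DDIT3, which encodes the bZIP factor CHOP and marks strong or lasting stress (ENSG00000175197, chr12:57516588-57521737, minus strand), had 163 and 252 counts in UHRF1 KO, against 163 and 151 counts in control. These were 7.86 and 10.1 CPM in UHRF1 KO and 9.14 and 8.14 CPM in control, so the groups overlapped. The log2 fold change was 0.07 ± 0.14 (SE, with an adjusted p of 0.687 by edgeR), and its sign turned in 5 of 16 alternative fits. Without UHRF1 KO replicate 2 it was -0.14, and without control replicate 2 it was -0.03. Of the exon bases of DDIT3, 39.6% are shared with other genes, mostly with MARS, which runs on the opposite strand and had 3132 and 3710 counts in UHRF1 KO and 3962 and 4242 counts in control. How the counting treated strand was not given in the sources used here, and reads of DDIT3 and of MARS cannot be told apart in the shared bases.

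TRIB3, a pseudokinase that binds ATF4 and dampens its activity (ENSG00000101255, chr20:362835-397559, plus strand), had 137.6 and 138.6 CPM in UHRF1 KO, against 191.6 and 182.6 CPM in control. The groups were apart and both UHRF1 KO libraries were almost equal. TRIB3 was 1.35-fold lower, with a log2 fold change of -0.44 ± 0.042 (SE, with an adjusted p of 8.09e-11 by edgeR).

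CHAC1, an enzyme that breaks down glutathione (ENSG00000128965, chr15:40952962-40956519, plus strand), was scarce, with 59 and 89 counts in UHRF1 KO and 75 and 78 counts in control. Scaled, these were 2.85 and 3.58 CPM in UHRF1 KO, against 4.21 and 4.20 CPM in control. The groups did not overlap, but the spread between the UHRF1 KO libraries was wider than the gap between the groups. The log2 fold change of -0.38 ± 0.21 (SE) was not called (edgeR adjusted p = 0.110). It was called, at -0.57 with an edgeR adjusted p of 0.0144, when trends of fold change with gene length and GC content were removed.

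ASNS, the enzyme that makes asparagine from aspartate (ENSG00000070669, chr7:97852118-97872542, minus strand), had the fewest counts, 15 and 30 in UHRF1 KO and 34 and 34 in control. It had 0.723 and 1.21 CPM in UHRF1 KO, against 1.91 and 1.83 CPM in control. The groups were apart, with one UHRF1 KO library well below the other. It was 1.90-fold lower, with a log2 fold change of -0.93 ± 0.35 (SE, with an adjusted p of 0.0207 by edgeR). Its call was lost without UHRF1 KO replicate 1 (log2 fold change -0.64, edgeR adjusted p = 0.198), without control replicate 1 (edgeR adjusted p = 0.0503), with DESeq2 (adjusted p = 0.197), with length and GC trends removed (edgeR adjusted p = 0.0532), as well as at a threshold of 0.01, and over all alternatives its adjusted p ran between 0.00517 and 0.198. In GENCODE 29, 96.1% of the coding bases of ASNS also lie in exons of AC079781.5, a transcript on the same strand with 19 and 19 counts in UHRF1 KO and 20 and 20 counts in control. Reads from shared bases may have been split between these genes or dropped, since the counting rule was not given in the sources used here. Its 4 annotated pseudogenes held 1 and 6 counts in UHRF1 KO and 0 and 0 counts in control, up to 20% of the ASNS count, while those of ATF4, PSAT1, PSPH and MTHFD2 held at most 0.43% of the parent gene's. Counts of ASNS are therefore an uncertain measure of its level.

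PHGDH, the dehydrogenase that starts serine synthesis (ENSG00000092621, chr1:119648411-119744226, plus strand), fell most. It had 243 and 271 counts in UHRF1 KO, against 713 and 703 counts in control. In CPM these were 11.7 and 10.9 in UHRF1 KO and 39.99 and 37.9 in control. Each control library stood more than 3-fold above each UHRF1 KO library. The means were 11.3 ± 0.577 CPM in UHRF1 KO and 38.9 ± 1.48 CPM in control (SD, n = 2 each), 3.45-fold lower in UHRF1 KO. The log2 fold change was -1.79 ± 0.088 (SE, with an adjusted p of 2.99e-18 by edgeR), and 0.528% of all genes tested had a lower one.

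PSAT1, the aminotransferase of the next step (ENSG00000135069, chr9:78297143-78330093, plus strand), had 141.1 and 141.5 CPM in UHRF1 KO, against 264.3 and 263.3 CPM in control. The libraries of each group were nearly equal and the groups lay far apart. PSAT1 was 1.87-fold lower, with a log2 fold change of -0.90 ± 0.039 (SE, with an adjusted p of 1.30e-19 by edgeR). PSPH, the phosphatase of the last step (ENSG00000146733, chr7:56011051-56051604, minus strand), moved less, with 35.4 and 36.8 CPM in UHRF1 KO and 44.2 and 47.5 CPM in control. The groups did not overlap, and PSPH was 1.27-fold lower, with a log2 fold change of -0.34 ± 0.067 (SE, with an adjusted p of 4.39e-05 by edgeR). The 3 enzymes of serine synthesis were thus all lower, with the first step furthest below control and the last step nearest to it. The differences between their fold changes were not tested.

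SHMT2, the mitochondrial enzyme that splits serine into glycine and a folate-bound carbon (ENSG00000182199, chr12:57229327-57234935, plus strand), had 104.9 and 106.6 CPM in UHRF1 KO, against 127.8 and 129.0 CPM in control. The groups were apart by a small amount, 1.21-fold lower in UHRF1 KO, with a log2 fold change of -0.28 ± 0.045 (SE, with an adjusted p of 2.13e-06 by edgeR). MTHFD2, the mitochondrial dehydrogenase and cyclohydrolase that oxidises that carbon (ENSG00000065911, chr2:74198562-74217565, plus strand), had 146.3 and 143.0 CPM in UHRF1 KO and 221.9 and 213.0 CPM in control. Its groups lay well apart, 1.503-fold lower in UHRF1 KO, with a log2 fold change of -0.59 ± 0.041 (SE, with an adjusted p of 3.43e-14 by edgeR). With length and GC trends removed its log2 fold change was -0.38, still called. Exon bases shared with genes on the opposite strand make up 33.2% of MTHFD2 and 9.5% of SHMT2, and the largest such partner of MTHFD2, SLC4A5, had 18 and 20 counts in UHRF1 KO and 8 and 4 counts in control. The other 6 genes, all but DDIT3, ASNS, SHMT2 and MTHFD2, share 0% of their exon bases.

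**Figure D2:**
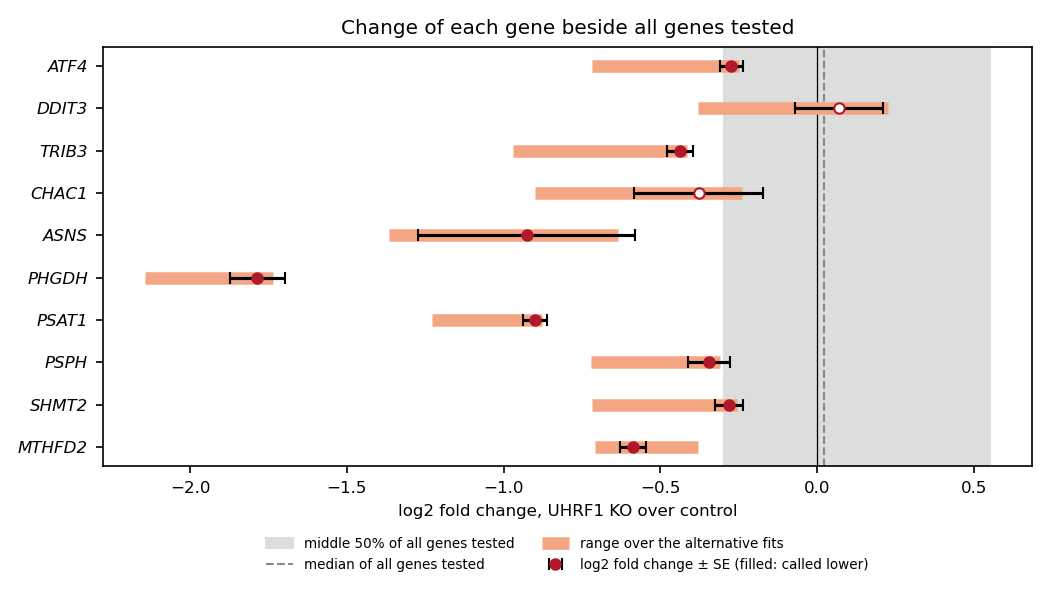
Log2 fold change of the 10 genes, UHRF1 KO over control (x axis), with its SE; filled points were called lower and open points were not called. Pale bars give the range over 16 alternative fits and the grey band the middle 50% of all genes tested, between -0.30 and 0.55; PHGDH, ASNS, PSAT1, MTHFD2, TRIB3 and PSPH lie left of that band with their whole range.

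Levels of different genes were set side by side per kilobase of annotated exon, as CPM per kb. By mean level, the order in UHRF1 KO was ATF4 with 106.5, PSAT1 with 64.6, TRIB3 with 40.2, MTHFD2 with 29.7, SHMT2 with 21.9, PSPH with 13.1, DDIT3 with 6.88, CHAC1 with 1.56, PHGDH with 1.23 and ASNS with 0.217 CPM per kb. In control it was ATF4 with 128.8, PSAT1 with 120.5, TRIB3 with 54.5, MTHFD2 with 44.6, SHMT2 with 26.5, PSPH with 16.6, DDIT3 with 6.61, PHGDH with 4.22, CHAC1 with 2.04 and ASNS with 0.420 CPM per kb. Within each group no neighbours in this order had libraries that overlapped. The order depends on the length used. Per kilobase of coding sequence, MTHFD2 had 137.8 CPM in UHRF1 KO, above PSAT1 with 127.3 and TRIB3 with 119.5, and in control it had 207.1 CPM, below PSAT1 with 237.6 and above TRIB3 with 162.0. The annotated exons of PHGDH span 9217 bases, of which 1771 are coding. PHGDH had 6.39 CPM per coding kb in UHRF1 KO, below DDIT3 with 15.6 and above CHAC1 with 4.06, and in control it had 21.99, above DDIT3 with 15.0 and CHAC1 with 5.31. ATF4 was highest and ASNS lowest in both groups by either length.

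Since UHRF1 acts on DNA methylation, the promoter sequences of the genes are shown with their CpG content. Methylation itself was not measured. RefSeq (GRCh38.p14) windows, from 250 bases before a start site to 50 after it, were matched for 8 of the 10 genes, all but PSPH and SHMT2. The ratio of observed to expected CpG ran between 0.74 and 1.14 over the windows of these genes, above the median of 0.58 over all 35116 windows in each case. PSAT1 had the highest ratio, above 98.5% of windows, and a window of ASNS the lowest, above 61.7% of windows. The windows of PSAT1 and PHGDH carry the motif CCAAT, the box bound by the factor NF-Y, which stands in capitals here. It was not among the motifs first searched and was added with results of these data known. Of all windows, 34.6% hold it. The PSAT1 sequence runs over the 250 bases before the start at chr9:78296875-78297124, and the PHGDH sequence over 30 bases at chr1:119711852-119711881, both on the plus strand, 5′ to 3′.
PSAT1: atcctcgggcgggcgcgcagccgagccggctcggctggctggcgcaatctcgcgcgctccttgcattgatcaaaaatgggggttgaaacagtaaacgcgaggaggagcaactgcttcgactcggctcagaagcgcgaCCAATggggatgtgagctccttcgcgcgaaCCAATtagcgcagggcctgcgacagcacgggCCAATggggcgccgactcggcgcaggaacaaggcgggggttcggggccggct
PHGDH: agtatttccgtCCAATcaaaaggagactgt

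The motif CCAAT, searched on both strands, was in the windows of DDIT3, CHAC1, PSAT1, PHGDH and MTHFD2 and in 34.6% of all windows. PSAT1 and CHAC1 held it 3 times, and 3.26% of all windows held it 3 or more times. It was thus found in genes that fell and in both genes with no call.

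ATF4 and C/EBP factors bind as pairs to the C/EBP-ATF response element. The letters first searched for it, TGATGNAAT, were in 0.991% of all windows and in 0 of these genes' windows. A shorter core TGATGNAA, chosen after the sequences had been seen, was in 3.62% of windows and in those of ASNS and CHAC1. Sites of the element outside these windows were not searched. The 30 bases around the core are shown because these are the genes in which it was found, with the core in capitals. For ASNS they lie at chr7:97872458-97872487 and read along the minus strand, on which the gene runs. For CHAC1 they lie at chr15:40953251-40953280 and read along the plus strand, with the core on the other strand, so its capitals are the reverse complement.
ASNS: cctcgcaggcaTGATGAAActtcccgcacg
CHAC1: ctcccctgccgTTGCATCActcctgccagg

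These were also the genes with the fewest counts in control. The antioxidant response element core TGACNNNGC was in the windows of TRIB3 and MTHFD2 and in 13.3% of all windows. The endoplasmic reticulum stress element was in 0 windows of these genes and in 0.0769% of all windows. A match describes these letters in these windows and says nothing of binding.

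The genes around ATF4 did not move as a block. In 8 lists of related genes with 168 tested members, 82 were lower and 48 higher in UHRF1 KO, beside 30.1% lower and 32% higher among all genes tested. The share of the listed genes that was higher, 28.6%, was near that over all genes, and the share lower was 48.8%. Enzymes and transporters for amino acids and folate were mostly lower, and bZIP factors and the list of other ATF4 targets were more often higher than lower. That last list leaves out targets placed in other lists, such as SLC7A5, AARS, ATF3 and PPP1R15A, so it does not stand for all ATF4 targets. Several of the listed genes are targets of factors besides ATF4. The counts per list depended on the processing, and so did those over all genes. With length and GC trends removed, 4411 of all 17030 genes tested were lower and 6137 higher. In that setting 7 of 18 amino acid transporters were lower and 3 higher. Of 30 folate and one-carbon enzymes, 12 were then lower and 5 higher, while 15 of 20 cytosolic aminoacyl-tRNA synthetases stayed lower. With libraries also recentred on their mean, the median of all genes moved by -0.27 on the log2 scale. With that recentring 3479 of all 17030 genes tested were higher and 8267 lower. Of 12 bZIP factors 4 were then higher and 4 lower, and of 29 other targets 10 were higher and 12 lower.

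**Figure D3:**
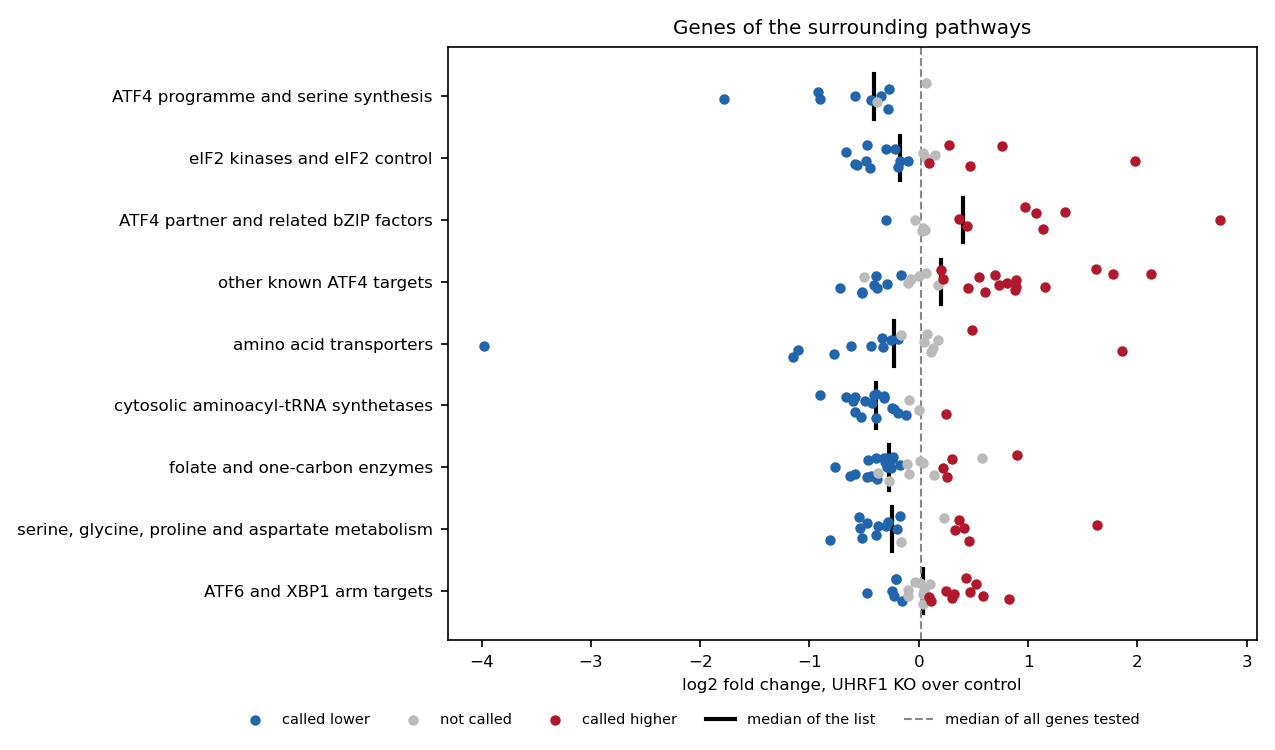
Log2 fold change, UHRF1 KO over control (x axis), of each tested gene of the 10-gene set and of 8 lists of related genes; blue points were called lower, red points higher and grey points were not called. The black bar is the list's median, between -0.41 for the 10 genes and 0.41 for the bZIP factors, and the dashed line the median of all genes tested, 0.02.

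Of 19 genes for eIF2, its exchange factor eIF2B, its kinases and phosphatases and proteins that act on the kinases, 11 were lower, 5 were higher and 3 had no call, with a median log2 fold change of -0.17. PPP1R15A, the inducible subunit that directs a phosphatase to eIF2, had 575.4 and 588.4 CPM in UHRF1 KO, against 151.4 and 143.4 CPM in control. The groups lay far apart, with a log2 fold change of 1.98 ± 0.038 (SE, with an adjusted p of 1.05e-29 by edgeR). Its constitutive relative PPP1R15B was also higher, by 0.77 on the log2 scale, as was the endoplasmic reticulum co-chaperone DNAJC3, by 0.47. Lower were the eIF2 subunits EIF2S1 and EIF2S2, with log2 fold changes of -0.45 and -0.67. The remaining subunit EIF2S3, named after its values were seen, was higher by 0.09 on the log2 scale, with 411.3 and 424.4 CPM in UHRF1 KO and 389.4 and 395.9 CPM in control (adjusted p of 0.0247 by edgeR). All 5 subunits of eIF2B, EIF2B1 to EIF2B5, also named after their values were seen, were lower, with log2 fold changes between -0.17 and -0.56. Among the kinases, EIF2AK2 (PKR, the sensor of double-stranded RNA) and EIF2AK4 (GCN2, the sensor of uncharged tRNA) were lower, with log2 fold changes of -0.58 and -0.30. EIF2AK1, a kinase named after its values were seen, had 204.8 and 208.1 CPM in UHRF1 KO and 221.9 and 220.6 CPM in control. It was lower by a small amount, with a log2 fold change of -0.10 (adjusted p of 0.0260 by edgeR). EIF2AK3 (PERK, the endoplasmic reticulum kinase) had a log2 fold change of 0.15 ± 0.076 (SE) and no call (edgeR adjusted p = 0.0803). It was called higher in 4 alternatives: with upper-quartile factors, with a minimum of 1 CPM in 2 libraries, with thinned counts, and with length and GC trends removed, which put it at 0.40 (edgeR adjusted p = 7.77e-06).

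Of 12 bZIP factors that pair with ATF4 or are related to it, 7 were higher, 1 was lower and 4 had no call, with a median of 0.41. ATF3, a stress-induced factor, had 130.3 and 134.96 CPM in UHRF1 KO, against 18.7 and 20.4 CPM in control. It was 6.77-fold higher, with a log2 fold change of 2.76 ± 0.061 (SE, with an adjusted p of 5.57e-28 by edgeR), in the opposite direction to ATF4. ATF5, the nearest relative of ATF4, had 70.3 and 66.3 CPM in UHRF1 KO, against 27.98 and 25.98 CPM in control, a log2 fold change of 1.34 ± 0.066 (SE, with an adjusted p of 4.07e-18 by edgeR). In both cases every UHRF1 KO library was more than 2-fold above every control library. JUN, a subunit of AP-1, was higher by 1.14 on the log2 scale, and CEBPB by 0.45, though with recentred libraries CEBPB was at -0.09. CEBPG, a C/EBP partner of ATF4 at amino acid genes, was the one that was lower, with a log2 fold change of -0.30 ± 0.046 (SE, with an adjusted p of 1.24e-06 by edgeR), and its call was lost with length and GC trends removed (-0.09, edgeR adjusted p = 0.0767).

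Of 30 other genes known as ATF4 targets, 29 were tested: 15 were higher, 8 were lower and 6 had no call, with a median of 0.20. SESN2, an inhibitor of the growth kinase mTORC1, had 19.5 and 18.1 CPM in UHRF1 KO and 11.9 and 9.65 CPM in control, a log2 fold change of 0.81. DDIT4, which also restrains mTORC1, had 150.6 and 149.4 CPM in UHRF1 KO and 88.9 and 91.8 CPM in control, a log2 fold change of 0.73. The groups were apart for both. The other named genes that were higher were the pseudokinase gene TRIB1, by 1.62 on the log2 scale, the growth factor VEGFA, by 0.89, the death receptor TNFRSF10B, by 0.70, and the stress cytokine GDF15, by 0.45 (-0.06 with recentred libraries). Lower were STC2, a secreted glycoprotein, with a log2 fold change of -0.52, XPOT, which exports tRNA from the nucleus, with -0.41, and HMOX1, a heme-degrading enzyme, with -0.39. The direction of the targets outside the 10 genes was thus mixed.

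**Figure D4:**
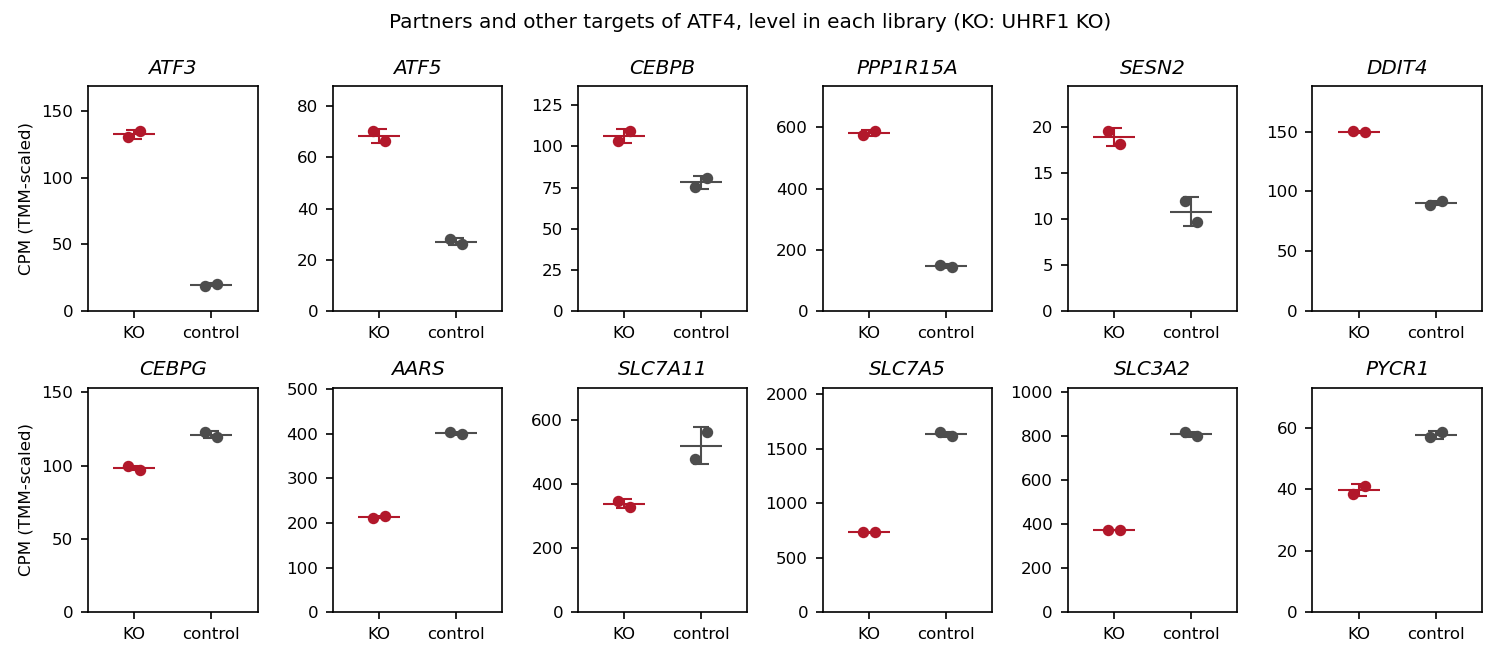
Level of 12 partners and other targets of ATF4 in each library, in CPM after TMM scaling, on axes that start at 0. Points are the 2 libraries of UHRF1 KO (left, red) and of control (right, grey), with the mean (bar) and SD; the upper row holds 6 genes that were higher in UHRF1 KO, such as ATF3 with 130.3 and 134.96 CPM against 18.7 and 20.4 CPM in control, and the lower row 6 that were lower.

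Of 20 amino acid transporters, 18 were tested: 10 were lower, 2 were higher and 6 had no call, with a median of -0.22. SLC7A5, the large neutral amino acid carrier LAT1, had 734.0 and 740.3 CPM in UHRF1 KO, against 1651 and 1615 CPM in control, a log2 fold change of -1.15 ± 0.031 (SE, with an adjusted p of 2.36e-25 by edgeR). Its partner chain SLC3A2 had 375.2 and 374.4 CPM in UHRF1 KO and 814.8 and 797.2 CPM in control, a log2 fold change of -1.10 ± 0.033 (SE, with an adjusted p of 3.34e-24 by edgeR). Both chains of this carrier were more than 2-fold lower, with the libraries of each group close together. SLC7A11, the cystine carrier that also pairs with SLC3A2, had 348.7 and 329.6 CPM in UHRF1 KO and 479.1 and 561.5 CPM in control, a log2 fold change of -0.62 ± 0.081 (SE, with an adjusted p of 0.00114 by edgeR). The glutamine carrier SLC1A5 had a log2 fold change of -0.44. The 2 that were higher were scarce: SLC7A8 with 11 and 17 counts in UHRF1 KO and 1 and 5 counts in control, and SLC43A1 with 121 and 147 counts in UHRF1 KO and 88 and 64 counts in control, whose sign turned with recentred libraries. DESeq2 called neither, with adjusted p of 0.230 for SLC7A8 and 0.268 for SLC43A1. Both calls were also lost without UHRF1 KO replicate 2, that of SLC7A8 without control replicate 1 (1.15) and that of SLC43A1 without control replicate 2 (0.23). The lowest point of this list, SLC1A3, a glutamate carrier named after its values were seen, had 2 and 1 counts in UHRF1 KO and 20 and 21 counts in control.

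Of 20 cytosolic aminoacyl-tRNA synthetases, which charge tRNAs with amino acids, 17 were lower, 1 was higher and 2 had no call, with a median of -0.39. AARS, for alanine, had 212.0 and 215.2 CPM in UHRF1 KO, against 402.4 and 397.97 CPM in control, a log2 fold change of -0.91 ± 0.036 (SE, with an adjusted p of 1.03e-20 by edgeR). TARS, for threonine, and IARS, for isoleucine, had log2 fold changes of -0.67 and -0.58. VARS, for valine, was the one that was higher, by 0.25 on the log2 scale, but its direction turned to -0.26 when trends were removed and libraries recentred. Of 17 mitochondrial synthetases, listed after values had been seen, 12 were lower, 1 was higher and 4 had no call, with a median of -0.37.

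Of 32 other folate and one-carbon enzymes, 30 were tested: 18 were lower, 4 were higher and 8 had no call, with a median of -0.28. Lower were the purine synthesis enzyme PAICS, with a log2 fold change of -0.63, and MTHFD1, the cytosolic folate enzyme, with -0.59. SHMT1, the cytosolic form of SHMT2, had 87.7 and 86.0 CPM in UHRF1 KO and 98.8 and 97.2 CPM in control, a log2 fold change of -0.17 ± 0.048 (SE, with an adjusted p of 0.00215 by edgeR). MTHFD1L, which carries the mitochondrial step after MTHFD2, had 37.6 and 41.9 CPM in UHRF1 KO and 49.8 and 48.0 CPM in control, a log2 fold change of -0.29. These named enzymes of the cytosol and of mitochondria were lower in both libraries. GLDC, the glycine decarboxylase, was higher, with 54.1 and 48.4 CPM in UHRF1 KO and 28.2 and 26.6 CPM in control, a log2 fold change of 0.90, as were MTRR, by 0.31, and MAT2A, by 0.22, of the methionine cycle. The call of MAT2A was lost with recentred libraries (0.04, edgeR adjusted p = 0.244).

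Of 21 other genes of serine, glycine, proline and aspartate metabolism, 18 were tested: 11 were lower, 5 were higher and 2 had no call, with a median of -0.24. The proline synthesis enzymes PYCR1 and ALDH18A1 were lower, with log2 fold changes of -0.54 and -0.40, and so were the aspartate aminotransferases GOT1 and GOT2, with -0.82 and -0.37, and the ornithine aminotransferase OAT, with -0.52. ASS1, which joins aspartate to citrulline in arginine synthesis, was higher, with 110.9 and 106.1 CPM in UHRF1 KO and 37.3 and 32.8 CPM in control, a log2 fold change of 1.63 ± 0.060 (SE, with an adjusted p of 8.50e-22 by edgeR). Glutamine synthetase, GLUL, was also higher, by 0.46 on the log2 scale.

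Targets of the ATF6 and XBP1 arms of the unfolded protein response served as a comparison with the ATF4 arm. Of 24 tested, 10 were higher, 6 were lower and 8 had no call, with a median of 0.04. These shares, 41.7% higher and 25% lower, stand beside 32% and 30.1% over all genes tested. With recentred libraries 5 were higher and 14 lower, beside 3479 higher and 8267 lower of all 17030 genes tested. The chaperone HSPA5 (BiP) had 1427 and 1406 CPM in UHRF1 KO and 1694 and 1671 CPM in control, a log2 fold change of -0.25 ± 0.030 (SE, with an adjusted p of 1.57e-08 by edgeR). MANF and HSP90B1, with log2 fold changes of -0.47 and -0.21, were lower too. The stress sensor kinase ERN1 (IRE1) was higher by 0.82 and the disulfide isomerase PDIA4 by 0.33 on the log2 scale. With recentred libraries PDIA4 was at -0.06, and with trends alone removed HSP90B1 was within its SE of 0.

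Paralogs of the genes, taken up after values had been seen, did not share one direction. Beside TRIB3, TRIB1 had 172.9 and 173.5 CPM in UHRF1 KO and 56.0 and 56.7 CPM in control, and TRIB2 had 2.94 and 2.61 CPM in UHRF1 KO and 0.393 and 0.862 CPM in control. Both were higher, with log2 fold changes of 1.62 and 2.12. CHAC2, the constitutive relative of CHAC1, had 14.2 and 13.4 CPM in UHRF1 KO and 20.6 and 18.9 CPM in control, with a log2 fold change of -0.52 ± 0.099 (SE, with an adjusted p of 3.42e-05 by edgeR). MTHFD2L, the close relative of MTHFD2, was lower too, with a log2 fold change of -0.29.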

How the data were processed

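RNA-seq read counts per gene were analysed for 2 UHRF1 KO and 2 control libraries of A549. Per the labels' protocols, Trizol was used for the RNA and a SMARTER mRNA-Seq kit for the libraries. The authors deposited whole-number counts per Ensembl gene, not normalized; FastQC 0.10.1 and GRCh38 stand in the submitters' processing notes, and aligner, counting tool and strand setting were not given in the sources used here. Of 58735 genes, 24721 were 0 in all libraries. Which control column is replicate 1 rests on the sample titles.

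In R 4.3.3 with edgeR 4.0.16, genes were kept by filterByExpr, scaled by TMM and tested with the two-sided quasi-likelihood test (robust moderation), with Benjamini-Hochberg adjustment over all genes tested and a threshold of 0.05. Each SE is approximate: the size of the log2 fold change divided by the root of its F statistic. The biological coefficient of variation was 3.16%, with 2 residual degrees of freedom per gene. Libraries of a group differed by more than counting noise (chi-square per degree of freedom 1.85 in UHRF1 KO and 2.65 in control) and were kept apart. The steps were tested on simulated counts. Alternatives included DESeq2 1.42.0 and limma-voom (limma 3.58.1).

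The 10 genes and the lists were chosen with earlier results of these data known. Outside the 10 genes, the text names UHRF1, up to 3 genes per list and direction with the smallest adjusted p, 18 genes named whatever their values, and genes whose later choice is stated; some genes that this rule names are not reported here. Reads carry no molecular identifiers.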

Additional observations from a re-analysis of the deposited data

How the results depend on the processing

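Over 16 alternatives, 7 to 10 of the 10 genes were lower in UHRF1 KO, except with a minimum of 1.5-fold, which left 4 (PHGDH, ASNS, PSAT1 and MTHFD2), and 0 were higher in each. That minimum left 1420 lower and 3609 higher among all genes, and 15 lower and 23 higher in the lists together. Recentring libraries after removal of length and GC trends moved the median of all genes by -0.27, giving 8267 lower and 3479 higher. In the lists it gave 113 lower and 26 higher. All 10 genes were then lower, with DDIT3 at -0.38 (edgeR adjusted p = 0.0135). Relative to that shift DDIT3 was at -0.11 and the other 9 between -0.44 and -1.88. Leaving out 1 library gave 7 to 8 of the 10 genes lower, 4388 to 5037 lower and 4626 to 5137 higher among all genes, and 77 to 83 lower and 43 to 45 higher in the lists; the lone library of a group is then assumed to vary like the other group.

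DDIT3 changed sign without UHRF1 KO replicate 2 (-0.140), without control replicate 2 (-0.0339), with trends removed (-0.0543) and with thinned counts (-0.00550), and leaving out 1 library put it between -0.140 and 0.225. With recentring, CEBPB (-0.0868), GDF15 (-0.0584), SLC43A1 (-0.0134), VARS (-0.257) and PDIA4 (-0.0638) changed sign, and with trends alone removed HSP90B1 did (0.000296). The cause was not tested. PHGDH, PSAT1 and MTHFD2 kept their calls in all 16 alternatives.

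The deviations of same-numbered libraries from their group means had a correlation of -0.014 over genes. With 2 libraries per group, and control numbers that rest on the titles, this value cannot show whether the numbers pair libraries. With the replicate block, 8 of the 10 genes were lower. The counts of ASNS and CHAC1, 15 to 89 per library, limit their precision.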
